A study of Mus musculus with 6 samples.

Results

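The core circadian clock genes were examined in mouse pancreatic islets, the clusters of hormone-secreting cells of the pancreas, at 12.5 days post coitum (dpc) of pregnancy (3 arrays) and in non-pregnant mice, labelled 0 dpc (3 arrays). The 10 genes were Arntl (also named Bmal1), Clock, Per1, Per2, Per3, Cry1, Cry2, Nr1d1, Nr1d2 and Dbp, and every probe set of the array whose only platform gene symbol was one of these was taken, which gave 23 of 45101 probe sets and all 10 genes of 18194 named. The study asked which factors drive islet proliferation in pregnancy. Islets of both groups were isolated by collagenase digestion, and the labels name no strain, age or pooling of animals. Nor do the sources used here give the time of day of isolation, the light schedule or the feeding state of either group. The values are MAS5 signals, which are brightness readings on a linear scale after background correction and scaling, with a reading for every probe set on every array. Signals of different probe sets are not compared with each other, because probe sets differ in how brightly they bind.

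The clock is a feedback loop of transcription that runs in most cells, islet cells included. ARNTL and CLOCK form a dimer that binds E-box sequences and switches on the Per and Cry genes, whose proteins return to inhibit the dimer. In a second loop the same dimer switches on Nr1d1 and Nr1d2, which encode the repressors REV-ERB alpha and beta, and these hold down Arntl and Clock. Dbp, another target of the dimer, encodes a factor that activates genes through D-box sequences. In mouse tissues the messages of Nr1d1, Dbp and the Per genes peak in turn through the day and early night, and Arntl and Npas2 run in roughly the opposite phase. In islets the clock is known for its part in insulin secretion.

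Promoter windows are shown for the gene that fell the most, for the other gene that fell, and for Per3, which was high in non-pregnant replicate 3. They are RefSeq windows of GRCm38.p6, from 250 bases before to 50 bases after the annotated start, written 5' to 3' on the gene's strand. Capitals mark the E-box CACGTG or the D-box (TTATGTAA or TTACGTAA), searched on both strands.
Cry2, chr2:92434020-92434319, minus strand: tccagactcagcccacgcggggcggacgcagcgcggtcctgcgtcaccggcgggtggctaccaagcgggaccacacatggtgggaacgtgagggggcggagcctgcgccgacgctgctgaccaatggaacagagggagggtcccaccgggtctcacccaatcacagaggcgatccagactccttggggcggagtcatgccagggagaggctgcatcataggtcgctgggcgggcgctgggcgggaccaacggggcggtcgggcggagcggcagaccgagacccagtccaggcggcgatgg
Per1, chr11:69098699-69098998, plus strand: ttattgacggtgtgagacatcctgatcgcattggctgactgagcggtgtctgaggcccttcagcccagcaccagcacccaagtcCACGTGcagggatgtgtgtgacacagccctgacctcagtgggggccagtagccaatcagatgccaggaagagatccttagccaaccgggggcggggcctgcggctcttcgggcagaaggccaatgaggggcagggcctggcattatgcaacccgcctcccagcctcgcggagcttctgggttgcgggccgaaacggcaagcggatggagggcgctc
Per3, chr4:151044616-151044915, minus strand: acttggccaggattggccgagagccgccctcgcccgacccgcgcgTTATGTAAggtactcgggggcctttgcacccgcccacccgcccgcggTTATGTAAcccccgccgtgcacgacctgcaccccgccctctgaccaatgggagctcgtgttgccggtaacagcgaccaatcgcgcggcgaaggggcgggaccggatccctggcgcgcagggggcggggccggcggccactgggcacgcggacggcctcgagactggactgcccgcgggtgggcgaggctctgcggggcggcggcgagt
The Per1 window shown held an E-box whose first base lay 166 bases before the start, while the window of the other annotated Per1 start, chr11:69099902-69100201, held none of the 4 motifs searched. The Per3 window held 2 D-boxes, at 205 and 158 bases before its start. The windows of Dbp, Nr1d1 and Nr1d2, also high in non-pregnant replicate 3, held none of the 4 motifs searched. The E-box was present in 7.15% of all 32851 promoter windows and the D-box in 1.06%. The Cry2 window held neither of these sequences, nor the ROR element core (TAGGTCA or TGGGTCA, in 6.45% of windows) nor the CRE TGACGTCA (1.79%). The Cry1 window, not shown, held an E-box 60 bases before its start. An Arntl window held a ROR element core 30 bases after its start. Neither Cry1 nor Arntl was called. These matches describe the letters of the windows and were not measured as binding sites.

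Cry2 and Per1, which both encode repressors of the ARNTL and CLOCK dimer, were lower in pregnant islets, and no core clock gene was called higher. By the brightest probe set of each gene, 0 of the 10 rose and 2 fell at a limma adjusted p of 0.05 (limma is a linear model with shrunken variances, adjusted by Benjamini and Hochberg over all 27022 probe sets tested), and 4 had an unadjusted p under 0.05. Over all 12914 genes tested, 5.79% were called lower and 6.1% higher. The 10 genes had a median log2 difference of -0.33 (pregnant minus non-pregnant, on the scale log2(signal + 16)), and all genes tested had a median of -0.04. The core median was -0.11 with the median of acinar cell markers as a covariate and -0.18 without non-pregnant replicate 3. Of the 23 probe sets, 21 were bright enough to be tested, and 2 of these were called lower and 0 higher. Over all probe sets tested, 9.57% were called, 4.78% lower and 4.79% higher. The groups did not overlap in 5 of these 21, all lower in pregnant islets, where 16.1% of all tested probe sets were lower without overlap and 11.6% higher. No label says whether a group's arrays stem from different animals, and p-values cover no more than array-to-array spread, which may be technical. In whole islets, fewer cells that express a gene and less RNA per cell cannot be told apart.

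Cry2 encodes a cryptochrome, a partner of the PER proteins in the repressor complex. Its signal was 1452, 1323 and 1459 in pregnant islets (replicates 1, 2 and 3), against 2588, 3098 and 2308 in non-pregnant islets. Every pregnant array lay below every non-pregnant array, and the 3 pregnant values were close together. The mean signal fell by 47.0%, to 1412 ± 76.4 (SD, n = 3) in pregnant islets, against 2665 ± 401 (n = 3) in non-pregnant islets. The log2 difference was -0.90 ± 0.10 (SE), with a 95% interval from -1.12 to -0.68 and a limma adjusted p of 1.6e-04. Across 17 alternative settings it ranged from -1.17 to -0.79 with adjusted p-values of 9.7e-05 to 0.032, and passed in all of them. Cry2 is represented by a single probe set, so no other probe set bears on this value. On GRCm38.p6 the Cry2 gene overlaps the annotated gene D930015M05Rik, and where the probes lie was not used here.

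Per1, a period gene that glucocorticoids and cAMP signalling also induce, was the other gene that fell. Its signal was 1226, 1140.1 and 1039.6 in pregnant islets, against 1723, 1601 and 1566 in non-pregnant islets, again without overlap. The means were 1135 ± 93.1 and 1630.1 ± 82.3 (SD, n = 3 each), and the log2 difference was -0.52 ± 0.09 (SE; 95% interval -0.71 to -0.33; limma adjusted p = 0.0026). The call was lost at an adjusted p of 0.059 when the variance model had no trend with signal, and at 0.10 with the median of acinar cell markers as a covariate. The difference itself was -0.52 and -0.57 in those fits. Per1, too, has 1 probe set on the array.

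**Figure D1:**
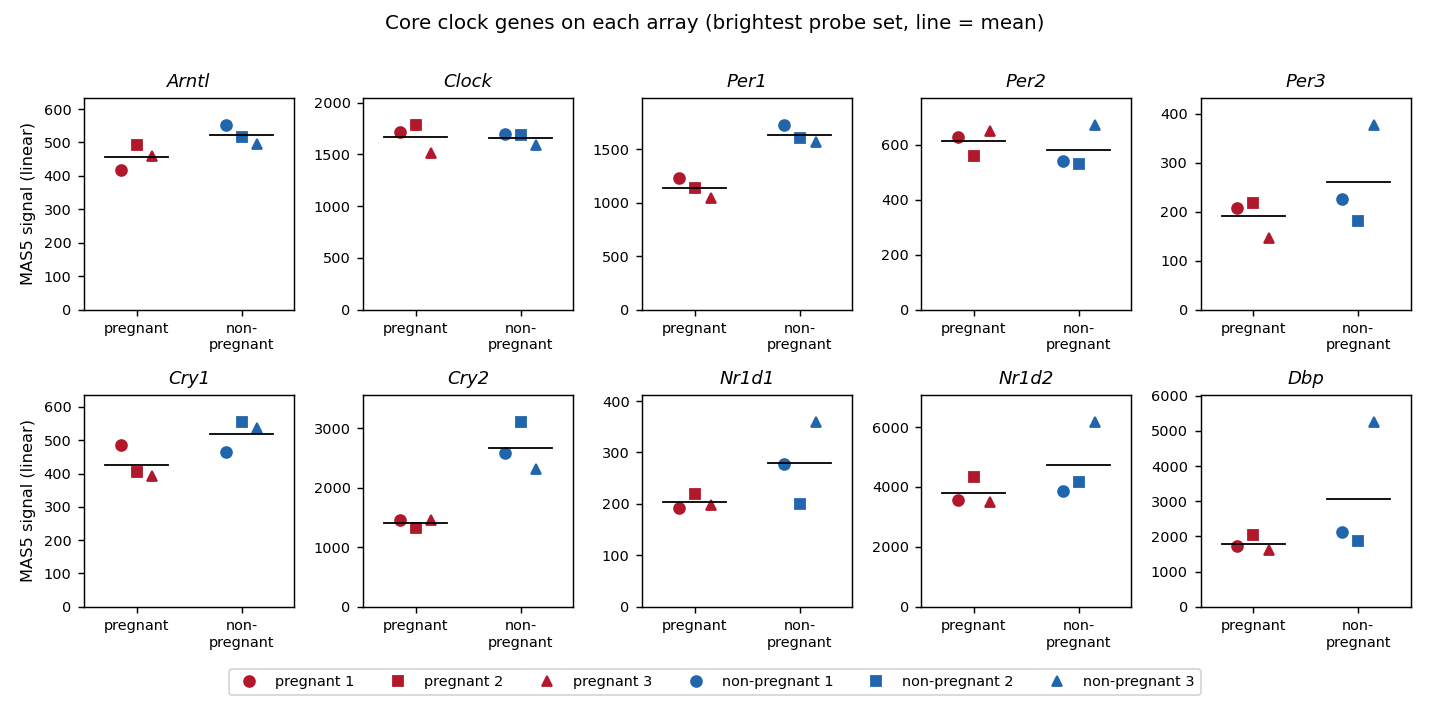
Signal of the brightest probe set of each core clock gene on each array (MAS5 signal, linear axis from 0), with pregnant arrays in red left of non-pregnant arrays in blue, and a line at the group mean. Cry2, Per1 and Arntl, which was not called, do not overlap between groups. Non-pregnant replicate 3 (triangle) is the highest point for Dbp, Nr1d1, Nr1d2, Per3 and Per2.

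The other period genes did not pass. Per2, the period gene most needed for rhythms in mice together with Per1, had signals of 631, 559 and 652 in pregnant islets and 543, 531 and 672 in non-pregnant islets. These values were interleaved, and the log2 difference of its brightest probe set was 0.08 ± 0.12 (95% interval -0.18 to 0.34; limma adjusted p = 0.76). The remaining Per2 probe sets had differences of -0.28 and 0.03, with adjusted p-values of 0.51 and 0.97. Per3, a period gene that is largely dispensable for rhythms in mice, had 206, 218 and 146 in pregnant islets, against 226.5, 180.1 and 376 in non-pregnant islets. The top value was that of non-pregnant replicate 3, and the groups overlapped (log2 difference -0.38 ± 0.25, 95% interval -0.92 to 0.15, limma adjusted p = 0.40). The other 3 tested Per3 probe sets had differences of -0.45, -0.52 and -0.26, none of them past the threshold. The remaining 2 Per3 probe sets fell below the filter on brightness and averaged 48.4 and 25.4 in pregnant islets and 32.7 and 34.8 in non-pregnant islets. Those levels were near the range of 1.1 to 32.3 of control probe sets for a bacterial transcript.

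Cry1, the cryptochrome that is the stronger repressor of the pair, had signals of 485, 403 and 393 in pregnant islets, against 465.5, 553 and 538 in non-pregnant islets. Pregnant replicate 1 lay above non-pregnant replicate 1, so the groups overlapped. The log2 difference was -0.27 ± 0.13 (95% interval -0.55 to -0.0012), with an unadjusted p of 0.049 and a limma adjusted p of 0.22. Cry2 therefore passed and Cry1 did not, and the difference between the 2 genes was not tested.

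The activators did not pass. Clock, the histone acetyltransferase partner of ARNTL, had 1713, 1780.1 and 1517 in pregnant islets and 1698, 1689 and 1587 in non-pregnant islets in its brightest probe set. The log2 difference of that probe set was 0.01 ± 0.08 (95% interval -0.17 to 0.19; limma adjusted p = 0.97). A second Clock probe set did not overlap between groups, at 995.1, 957.7 and 995.7 in pregnant islets, against 1129.5, 1111.7 and 1127.1 in non-pregnant islets (log2 difference -0.19 ± 0.08, 95% interval -0.36 to -0.02, adjusted p = 0.17). The 2 dimmer ones overlapped, with differences of 0.05 and -0.30. Arntl, the dimer's other subunit, had 417, 493 and 459 in pregnant islets, against 551, 517 and 496 in non-pregnant islets. The groups did not overlap, but the log2 difference of -0.19 ± 0.11 did not pass (95% interval -0.43 to 0.06; limma adjusted p = 0.36). Its dimmer probe set had a difference in the other direction, 0.27 ± 0.24 (adjusted p = 0.57).

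**Figure D2:**
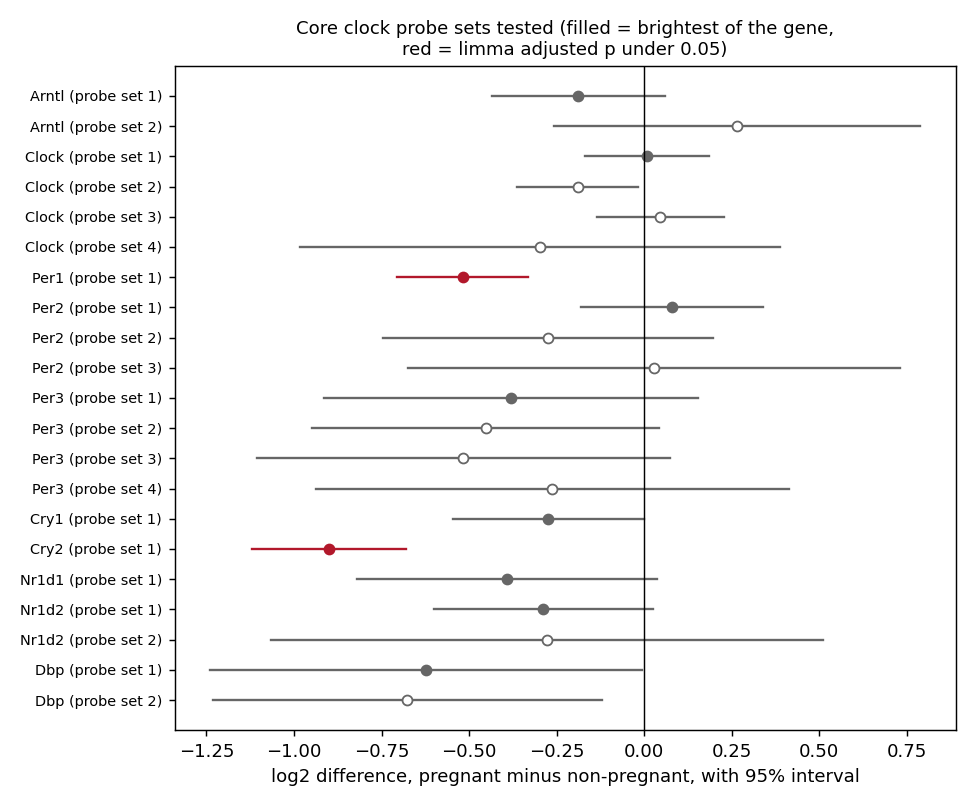
Log2 difference, pregnant minus non-pregnant, with its 95% interval for the 21 core clock probe sets tested, numbered within a gene from the brightest. Cry2 and Per1 (red) passed a limma adjusted p of 0.05, and the brightest probe sets of Clock and Per2 lie near 0.

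The REV-ERB genes and Dbp were marked by 1 non-pregnant array. The brightest Dbp probe set read 1717, 2028 and 1615 in pregnant islets, against 2121, 1865 and 5241 in non-pregnant islets. The second read 820, 736 and 712 in pregnant islets, against 908.1, 908.2 and 2173 in non-pregnant islets. In both probe sets the high value is non-pregnant replicate 3. The brightest had a log2 difference of -0.62 ± 0.28 (95% interval -1.24 to -0.01; unadjusted p = 0.048; limma adjusted p = 0.21). Without non-pregnant replicate 3 it was -0.16 ± 0.11 (adjusted p = 0.45), and that of the second was -0.26 ± 0.11 (adjusted p = 0.19), against -0.68 ± 0.26 (adjusted p = 0.13) with all arrays.

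Nr1d2 encodes REV-ERB beta and was bright, at 3572, 4338 and 3509 in pregnant islets, against 3864, 4174 and 6155 in non-pregnant islets. Its log2 difference was -0.29 ± 0.14 (95% interval -0.60 to 0.02; limma adjusted p = 0.26), and -0.08 ± 0.09 without non-pregnant replicate 3. The other Nr1d2 probe set was dim, with a difference of -0.28 ± 0.36. Nr1d1, for REV-ERB alpha, had 192, 220 and 198 in pregnant islets, against 278, 200 and 358 in non-pregnant islets. The lowest non-pregnant value lay within the pregnant range, and the difference of -0.39 ± 0.20 did not pass (95% interval -0.82 to 0.04; adjusted p = 0.26; -0.20 ± 0.20 without non-pregnant replicate 3). On GRCm38.p6 the Nr1d1 gene overlaps Thra, the Dbp gene Sphk2 and the Per3 gene Uts2, and the positions of the probes were not used here.

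Non-pregnant replicate 3 was then set against the other non-pregnant arrays across the clock, a comparison chosen after the values were seen and given with no test. By the brightest probe set, Dbp, Nr1d2 and Per3 were at least 0.5 higher there (log2 scale) than on both other non-pregnant arrays. The same held for 1.38% of all genes tested. In replicates 1, 2 and 3, dimmer Per3 probe sets read 178.8, 132.7 and 194.3, then 93.6, 133.3 and 140.0, then 81.9, 82.5 and 132.7. The dimmer Nr1d2 probe set read 105.9, 54.5 and 140.3. Replicate 3 was highest in each, but near the next array in the first and second of these Per3 probe sets. On each of the other 5 arrays, 0 core genes stood that far above both partners, against 1.08% to 2.18% of all genes. No core gene stood as far below both partners on any array. Relative to the mean of non-pregnant replicates 1 and 2, replicate 3 was higher by 1.39 on the log2 scale for Dbp, by 0.85 for Per3, by 0.61 for Nr1d2, by 0.57 for Nr1d1 and by 0.31 for Per2. These placed Dbp at percentile 99.9 of all genes, Per3 at 99.0, Nr1d2 at 97.5, Nr1d1 just below it and Per2 at 90.2. Cry1 was at percentile 65.2, Per1 at 31.3, Clock at 29.5, Arntl at 28.0 and Cry2 at 9.32. The clock genes therefore did not all move one way on that array.

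The accessory factors of the clock gave further values on the same arrays. Tef and Hlf, the relatives of Dbp that bind the same D-box, were highest of the non-pregnant arrays in replicate 3, as were the repressors Ciart, Bhlhe40 and Bhlhe41 (5 of 5). All genes tested had their top non-pregnant value in that replicate in 33.3% of cases. The excess over the mean of the other non-pregnant arrays was 0.50 on the log2 scale for Tef, 0.62 for Hlf, 0.59 for Ciart, 0.65 for Bhlhe41 and 0.33 for Bhlhe40. Npas2, which can replace CLOCK in the dimer and is repressed by the REV-ERBs, read 41.0 in that replicate, against 154.4 and 113.4 in replicates 1 and 2, an excess of -1.38 at percentile 0.31. It is a dim gene, at 53.8, 78.5 and 98.3 in pregnant islets. Nfil3, a D-box repressor that the REV-ERBs also hold down, read 2581 in replicate 3, against 3530.4 and 3829 in replicates 1 and 2 (excess -0.51, percentile 3.55). Arntl2, a relative of Arntl, was low there as well (excess -1.08), but it also stood at least 0.5 above both partners on pregnant replicate 1 and non-pregnant replicate 1, and below both on pregnant replicate 2. Among the clock output genes the excess was 0.26 for Nampt, 0.22 for Wee1, 0.21 for Coq10b, 0.12 for Tspan4, -0.10 for Tsc22d3 and -0.21 for Usp2. Arntl, which runs in roughly the same phase as Npas2, had an excess of -0.10, and Rora had -0.09. Whether the time of day of sampling differed between arrays or between groups was not tested, because no time is recorded in the sources used here.

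**Figure D3:**
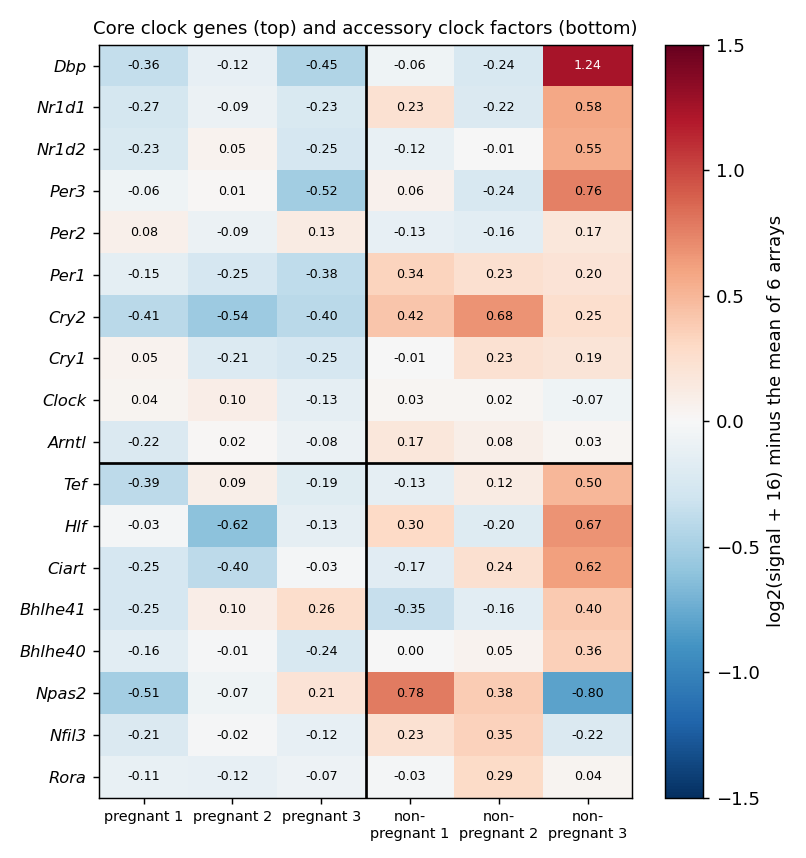
Log2(signal + 16) of core clock genes (top block) and accessory factors (bottom block) minus the mean of the 6 arrays, with pregnant arrays left of non-pregnant arrays and 1 column per array. Non-pregnant replicate 3 is the darkest red for Dbp (1.24) and blue for Npas2 (-0.80). Cry2 and Per1 are lower in all 3 pregnant columns than in all 3 non-pregnant columns. So are Arntl, Bhlhe40 and Rora, whose brightest probe sets were not called.

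The pregnant arrays differed less among themselves. The median range over the 3 arrays of a group was 0.23 on the log2 scale for the 10 core genes in pregnant islets and 0.38 in non-pregnant islets, and over all genes tested it was 0.23 and 0.26. Without non-pregnant replicate 3, Cry2 (limma adjusted p = 1.1e-04) and Per1 (-0.55, adjusted p = 0.0064) still passed.

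Between the groups, 0 of 4 genes tested passed in a list of accessory activators and ROR genes that also held the repressor Nfil3, and 0 of 5 accessory repressors and D-box factors passed. Bhlhe40 did not overlap, at 968, 1072 and 910.0 in pregnant islets, against 1081, 1124 and 1390.5 in non-pregnant islets, but did not pass (log2 difference -0.28 ± 0.11, limma adjusted p = 0.15). Hlf had -0.52 ± 0.23 (adjusted p = 0.20), Ciart -0.45 ± 0.24 (0.28), Tef -0.33 ± 0.15 (0.23) and Bhlhe41 0.07 ± 0.29 (0.92). The activators Npas2 and Arntl2 had -0.25 ± 0.38 (0.77) and 0.52 ± 0.50 (0.59). Nfil3 had -0.24 ± 0.12 (0.27) and was called lower without non-pregnant replicate 3, at -0.41 ± 0.08 (0.011). Rora, a nuclear receptor that activates Arntl, had -0.20 ± 0.09 (0.21) in its brightest probe set. A dimmer Rora probe set was called lower (-0.34 ± 0.09, adjusted p = 0.029), and others of its 9 probe sets had differences of either sign. Rorb was too dim to be tested.

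For the next lists, too, the share of all genes tested was 5.79% called lower and 6.1% higher. Among the kinases, ubiquitin ligases and partners of clock proteins, 1 of 13 genes tested fell and 0 rose. That was Csnk1e, the casein kinase that phosphorylates PER proteins, at 697, 804.5 and 626 in pregnant islets, against 973, 906 and 972.5 in non-pregnant islets (log2 difference -0.42 ± 0.11, limma adjusted p = 0.027). It did not pass without pregnant replicate 1 (0.089) or 3 (0.098), non-pregnant replicate 1 (0.068) or 3 (0.076), the variance trend (0.12), or with median centring (0.13) or the acinar covariate (0.37). Its relative Csnk1d had -0.02 ± 0.06 (adjusted p = 0.92). Prkaa1, a catalytic subunit of the AMPK that phosphorylates CRY1, had -0.30 ± 0.09 (0.058), Sirt1 -0.26 ± 0.08 (0.068) and Tipin, a partner of Timeless, 0.28 ± 0.09 (0.067), and none passed. Tipin was called higher with quantile normalization (0.049), median centring (0.048) and the top 40% filter (0.049). The list's count was 2 lower and 1 higher, 0 lower and 1 higher, and 3 lower and 1 higher in these fits, in the same order. Prkaa1 was called lower with the top 40% filter (0.043) and without non-pregnant replicate 2 (0.046). Sirt1 was called lower with that filter (0.049), and Csnk1a1 with quantile normalization (0.038). Of 6 clock output genes tested, 1 fell, Coq10b, at 1290, 1389 and 1209.5 in pregnant islets and 1676, 1465 and 1819 in non-pregnant islets (-0.34 ± 0.09, adjusted p = 0.040). Its adjusted p ranged from 0.018 to 0.13 with any 1 array left out, and among those fits passed only without non-pregnant replicate 2. The call was also lost with the replicate block (0.064), no filter on brightness (0.066), no variance trend (0.17), median centring (0.20) and the acinar covariate (0.69). Usp2, a deubiquitinase that cycles in many mouse tissues, had -0.17 ± 0.13 in its brightest probe set (0.52) and -0.59 ± 0.12 in its other one (0.0086). Tsc22d3, a cycling target of glucocorticoids, had -0.28 ± 0.08 (0.060) in the brightest and -0.54 ± 0.10 (0.0063) in the next. Tspan4 (-0.30), Wee1 (-0.15) and Nampt (0.05) did not pass, and Por was not named among the single-symbol probe sets.

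Lists of genes known to respond to glucocorticoids, to cAMP and growth signals or to temperature were also counted. For comparison, 5.79% of all genes tested were called lower and 6.1% higher, with a median log2 difference of -0.04. Of 10 glucocorticoid-induced genes, which include Tsc22d3 of the clock output list, 8 fell and 0 rose. Their median log2 difference was -0.43. Fkbp5, a chaperone partner of the glucocorticoid receptor, had 965, 958 and 1014 in pregnant islets, against 1949, 2172 and 1407 in non-pregnant islets (-0.88 ± 0.13, limma adjusted p = 0.0013). The second Fkbp5 probe set tested overlapped between groups and did not pass (-0.37 ± 0.14, adjusted p = 0.14). Ddit4, an inhibitor of mTORC1, had -0.53 ± 0.06 (2.2e-04), Errfi1, an inhibitor of the EGF receptor, had -0.52 ± 0.08 (0.0015) and Klf9, a transcription factor, had -0.37 ± 0.06 (0.0017). With every gene centred on its own mean, the list's median was -0.24, -0.15 and -0.26 in pregnant arrays, against 0.25, 0.31 and 0.09 in non-pregnant arrays. Here non-pregnant replicate 3 was the lowest of its group. The count was 9 lower without that array, 4 with each array centred on its median or with the acinar covariate, and 1 without the variance trend. Of 14 immediate early and CREB-induced genes, 5 fell and 1 rose (median -0.25). Fosb (-0.43 ± 0.08, limma adjusted p = 0.0060), Junb (-0.42 ± 0.09, 0.015) and Dusp1 (-0.26 ± 0.06, 0.024) fell. Dusp1 is also in the glucocorticoid list. Crem, a cAMP-responsive regulator, rose (0.35 ± 0.08, adjusted p = 0.021). Of 6 temperature-responsive genes tested, 5 fell and 0 rose (median -0.28), with Dnajb1 at -0.42 ± 0.05 (2.8e-04), Hsph1 at -0.36 ± 0.07, Hspa1a at -0.25 ± 0.05 and the cold-induced Cirbp at -0.32 ± 0.08. Without the variance trend 0 genes of the immediate early or the temperature list passed. With median centring 1 and 2 fell in these lists, and with the acinar covariate 0 and 1. Leaving out 1 array gave 1 to 5 lower in the immediate early list and 2 to 4 in the temperature list. The part of these signals in the Per1 difference was not tested.

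**Figure D4:**
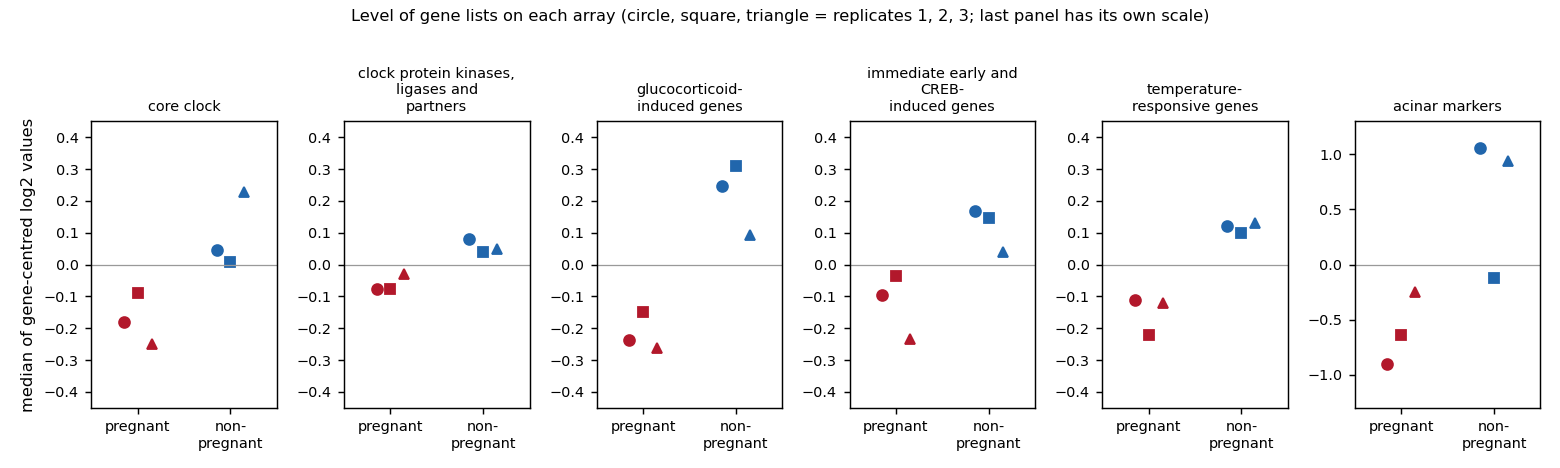
Median gene-centred log2 level of the core clock and of 5 other gene lists on each array, with pregnant arrays in red left of non-pregnant arrays in blue. The glucocorticoid-induced list lies at -0.26 to -0.15 in pregnant arrays and at 0.09 to 0.31 in non-pregnant arrays, and the acinar markers have an axis of their own.

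The islet hormone genes Ins2, Iapp, Gcg and Sst all read 16958 or more on every array in their brightest probe sets. Brightness alone does not give the share of a cell type. Of 13 islet endocrine markers tested, 2 were higher and 1 lower in pregnant islets, against 6.1% and 5.79% of all genes tested. Pcsk1 (0.94 ± 0.07, limma adjusted p = 6.0e-06) and Chgb (0.56 ± 0.05, 1.7e-05) were higher and Slc2a2 was lower. The median log2 difference of these markers was -0.01. Markers of acinar cells, the enzyme-secreting cells around islets, were bright too (Cela1 at 14039 or more) and moved with the groups. Of 19 tested, 17 were lower in pregnant islets and 0 higher, against 5.79% and 6.1% of all genes tested. Their summed signal was 121081 to 196424 in pregnant arrays, against 206318 to 390892 in non-pregnant arrays, and no marker was at 0. Only 7 were lower without pregnant replicate 1, and 0 with robust variance or no variance trend. Their centred median was -0.90, -0.64 and -0.25 in pregnant arrays, against 1.06, -0.12 and 0.94 in non-pregnant arrays. With that median as a covariate, a step already tried in earlier work on these data, Cry2 had -1.17 (limma adjusted p = 0.0028), Per1 -0.57 (0.10) and Dbp -0.04 (0.98). Stellate and fibroblast markers (3 of 15 lower, 0 higher) and endothelial markers (1 of 11 lower, 0 higher) had summed signals of 14172 to 18139 and 9757 to 11058 in pregnant arrays, against 19893 to 20490 and 11091 to 11832 in non-pregnant arrays. Macrophage and lymphocyte markers (1 of 11 higher, 0 lower) had summed signals of 11059 to 11988 in pregnant arrays and 7532 to 7825 in non-pregnant arrays, but a median log2 difference of 0.0031. The gene called higher by its brightest probe set was C1qa, a complement gene of macrophages. It read 7451, 7823 and 6625 in pregnant islets, against 3810, 3120 and 3584 in non-pregnant islets. Lyz1 had 0.53 ± 0.16 (limma adjusted p = 0.063) in its brightest probe set, which did not pass. Its next probe set was called higher (0.61 ± 0.15, adjusted p = 0.023). C1qb (-0.17), C1qc (-0.25) and Csf1r (-0.28) did not pass. These sums add probe sets of unlike brightness. The part of these cells in the clock gene differences was not tested. The acinar median did not overlap between the groups, so a fit with it as a covariate cannot separate acinar content from pregnancy.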

How the data were processed

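Affymetrix arrays were hybridized with biotinylated cRNA from 100 ng of total RNA, per the labels' protocols. The deposited values are intensities, which the submitters' processing notes call MAS5, with version and settings not stated there. All arrays shared a 2% trimmed mean of 500.003, so no further normalization was applied. Gene names came from the platform annotation, checked through Entrez identifiers (0 symbols changed). Values were taken as log2(signal + 16), and non-control probe sets in the top 60% by mean over all arrays were tested with limma 3.58.1 in R 4.3.3 (eBayes with a variance trend, no covariate, 2-sided, Benjamini-Hochberg adjusted p under 0.05). Called were 1294 probe sets higher and 1293 lower of 27022 (9.57%), and with each array centred on its median 1430 and 583. A gene is represented by its brightest probe set. Intervals are 95% intervals of that fit, and the number of arrays limits precision. The fit was tested on simulated data.

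Named were all core, accessory and output clock genes, up to 4 genes of the smallest p per other list, and some further genes of those lists. Members and lists were chosen with earlier results of these data known. No label pairs the arrays by replicate number. The deviations of same-numbered arrays correlated at -0.03, -0.07 and 0.03, which cannot show whether they shared a day or hour of isolation. Figures were drawn with matplotlib 3.10.9.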

Additional observations from a re-analysis of the deposited data

How the results depend on the processing

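Cry2 was called lower in all 17 alternatives and Per1 in 15, so that 2 core genes were lower in 15 alternatives and 1, Cry2, without the variance trend and with the acinar covariate. No core gene was called higher in any of the 17. Over all probe sets, 393 were higher and 210 lower without the trend, 346 and 156 with the acinar covariate, and 583 lower with median centring. Leaving out 1 array gave 808 to 1282 higher and 674 to 977 lower. Pregnant replicate 1 left out gave 808 and 674, pregnant replicate 2 gave 824 and 753, pregnant replicate 3 gave 892 and 858, and non-pregnant replicate 2 gave 990 and 817. These fits have fewer arrays, and the cause of the other changes was not tested. With the replicate number as a block, 1211 were higher and 1145 lower, and Cry2 (limma adjusted p = 3.8e-04) and Per1 (0.0029) stayed called. The block changed no call of a core clock gene.

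Signs turned only for genes that were not called. Clock had -0.093 with the acinar covariate, -0.11 with the probe sets of a gene averaged, and -0.040 to 0.074 with any 1 array left out, below 0 when that was pregnant replicate 1 (-0.012), pregnant replicate 2 or non-pregnant replicate 3 (-0.024). Nr1d1 had 0.13 with the acinar covariate. With probe sets averaged, Arntl had 0.039 and Per2 -0.056. The cause of these turns was not tested. Leaving out 1 array moved Dbp between -0.90 and -0.16, Per3 between -0.60 and -0.10, and Nr1d2 between -0.42 and -0.08, each at its smallest without non-pregnant replicate 3. Dim probe sets, such as the 2 of Per3 that were not tested, limit what could be seen of their genes.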
